A study of Mus musculus with 4 samples.

Results

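The 9 genes described here, *Wt1*, *Nr5a1*, *Gata4*, *Zfpm2*, *Lhx9*, *Emx2*, *Cbx2*, *Six4* and *Nr0b1*, encode factors that establish the bipotential gonad. They were taken by name from the 34682 gene symbols of the count table, and all 9 were present and passed the filter on low counts that left 15442 genes to be tested. RNA was sequenced from developing mouse ovaries at embryonic stage E13.5 in 4 libraries. Of these, 2 came from ovaries that overexpress *Sall1* (mutant replicates 1 and 2) and 2 from wild-type ovaries (wild-type replicates 1 and 2). In the mutants, a BAC, a large genomic insert cloned in bacteria, carries the coding sequence of *Sall1* in place of *Wt1* under the promoter and regulatory elements of *Wt1*, so the construct acts in the somatic cells in which *Wt1* is active. It was integrated by piggyBac transposition into female embryonic stem cells, from which mice were made by morula aggregation. No agent was given to either group, and no allele shared by both groups is named. The controls are called littermates in the results of the study. The methods name CD1 mice as the source of wild-type gonads, and the wild-type count columns carry the name B6. For the stem cells of the transgenic mice, the methods give the strain that B6 abbreviates, or a hybrid of it. The name in the wild-type columns matches that background, whereas CD1 does not. The sources thus disagree, so strain may differ between mutant and wild-type libraries, and its part in any difference between them was not tested. The sources used here do not say whether a library holds 1 animal or several, so the p-values measure the spread between these 4 libraries.

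The gonad arises as a thickening of the coelomic epithelium on the mesonephros, and it can develop into either testis or ovary. GATA4 is needed for this thickening, while WT1, LHX9, EMX2, the Polycomb protein CBX2 and SIX4 act on the survival and growth of the somatic cells and on the activity of *Nr5a1*. NR5A1, also called SF-1, is the nuclear receptor that commits these cells to gonadal and steroidogenic fates, and NR0B1, also called DAX1, represses its activity. At E13.5 the ovary has passed this bipotential stage, and most of these genes remain active in its somatic cells.

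The libraries held between 11036313 and 17869840 counts, and the mutant libraries were shallower than the wild-type ones. The overexpressed gene, *Sall1*, was counted 1243 and 1445 times in the mutants and 279 and 223 times in the wild types. Its log2 fold change was 2.85 with a standard error of 0.16 (adjusted p = 0.00823; edgeR, quasi-likelihood, Benjamini-Hochberg). The tissue label was checked by markers: the germ cell gene *Dazl* had between 618 and 777 CPM (counts scaled to library size with TMM factors), and *Fst*, a gene of pre-granulosa cells, between 157 and 180 CPM. *Amh*, a hormone of Sertoli cells, had 3 counts in each library, which is the floor taken as the smallest count that can be told from absence, and *Sry* had 0. Not all listed markers followed this pattern. *Kitl*, of the pre-granulosa list, had 2 to 4 counts per library. From the Sertoli cell list, *Sox9* had 48 to 62 and *Aard* 221 to 317 counts per library. Muscle genes set 1 library apart, since *Myh3*, an embryonic myosin, was at 91.7 CPM in wild-type replicate 1 and between 1.36 and 5.26 CPM in the others. The share of this tissue in any value below was not tested, and the text gives the factors' values with a library left out where that changes a call or a direction.

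The promoters of the pair of members with the smallest p-values, *Lhx9* and *Nr0b1*, are shown first, as RefSeq windows of 300 bases from 250 before the annotated start to 50 after it, on GRCm38.p6. Windows were given for 4 of the 9 members, namely *Lhx9*, *Emx2*, *Six4* and *Nr0b1*. Capitals mark a match to 1 of 6 short words searched on both strands. The word CAAGGTCA is bound by NR5A1. The factor GATA4 and its relatives bind the word TGATAA and also the word AGATAA, which share their last 5 letters. Homeodomain proteins bind TAATTA, and zinc fingers of the WT1 and EGR kind bind GCGTGGGAG and also GCGGGGGCG. Each line gives the gene, its position and strand, and the sequence read 5′ to 3′ along the gene.
Lhx9, chr1:138842395-138842694, minus strand: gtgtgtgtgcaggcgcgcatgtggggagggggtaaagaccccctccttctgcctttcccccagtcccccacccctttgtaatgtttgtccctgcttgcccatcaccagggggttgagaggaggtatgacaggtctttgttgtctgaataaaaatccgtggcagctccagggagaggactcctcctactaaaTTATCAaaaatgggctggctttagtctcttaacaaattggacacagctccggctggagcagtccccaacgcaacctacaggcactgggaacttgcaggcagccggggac
Nr0b1, chrX:86191525-86191824, plus strand: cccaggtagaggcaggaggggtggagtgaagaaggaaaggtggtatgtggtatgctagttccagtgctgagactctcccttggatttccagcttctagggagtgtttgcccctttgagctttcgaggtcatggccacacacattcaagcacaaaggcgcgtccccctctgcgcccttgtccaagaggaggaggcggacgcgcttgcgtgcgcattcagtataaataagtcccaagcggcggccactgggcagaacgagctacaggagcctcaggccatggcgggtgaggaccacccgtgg
The *Lhx9* window held TGATAA on its antisense strand, at bases 192 to 197 of the window, a word found on either strand in 9.05% of the 32851 mouse windows of this length. The *Nr0b1* window held none of the 6 words, and neither did either of the *Six4* windows. The *Emx2* window held TAATTA at bases 287 to 292, a word in 5.29% of all windows. Among all windows, AGATAA was in 11.2%, CAAGGTCA in 1.56%, GCGGGGGCG in 2.91% and GCGTGGGAG in 0.472%. A match of letters is no binding site, and no match says only that these letters are not in the window.

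Counted per length, the 9 factors spanned a range of levels in wild-type ovaries from 67.2 to 5.44 CPM per kilobase of annotated exons. *Gata4* was highest at 67.2 ± 11.5 CPM per kilobase (SD, n = 2), followed by *Emx2* at 52.3 ± 6.2, *Wt1* at 49.95 ± 0.00551, *Nr5a1* at 42.2 ± 5.0, *Lhx9* at 31.0 ± 0.337, *Cbx2* at 21.96 ± 1.17, *Nr0b1* at 8.74 ± 0.763, *Zfpm2* at 7.04 ± 0.0117 and *Six4* at 5.44 ± 0.0179 CPM per kilobase. *Emx2* and *Wt1* were the only neighbours in this order whose ranges overlapped between libraries. The order of the first 7 factors was the same in mutant ovaries, but there *Lhx9* (21.0 ± 4.05 CPM per kilobase, SD, n = 2) overlapped with *Cbx2* (20.6 ± 3.15), as *Emx2* did with *Wt1* and *Six4* with *Zfpm2*. The order of the leading factors depends on the length used. With the longest annotated transcript in place of all exons, which shortens *Wt1* from 6195 to 3092 bases, *Wt1* ranked 1 and *Gata4* ranked 2 in both groups.

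**Figure D1:**
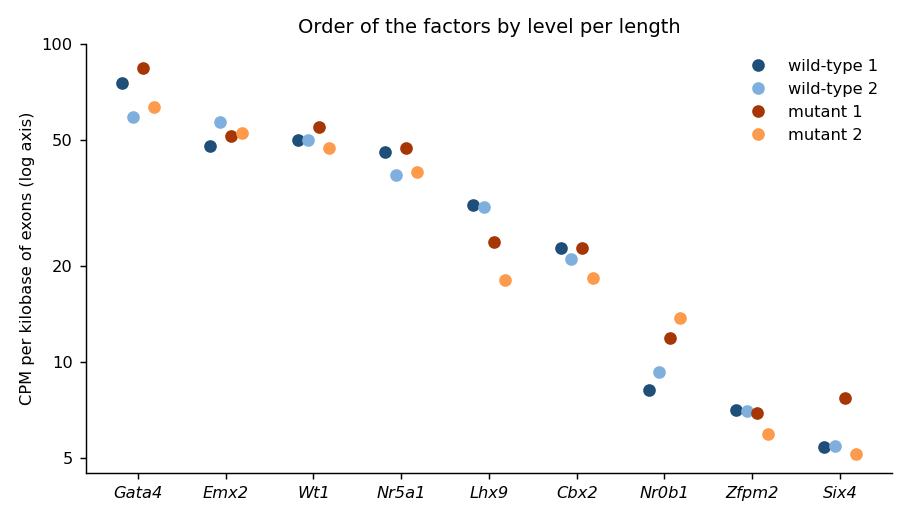
Level of each factor in CPM per kilobase of annotated exons (log axis), in the order of the wild-type means, with 1 point per library (blue, wild-type; orange and brown, mutant). The highest factor, Gata4, lies at 67.2 and the lowest, Six4, at 5.44 CPM per kilobase in wild-type ovaries, and the mutant points lie below the wild-type points for Lhx9 and above them for Nr0b1, although neither difference had an adjusted p under 0.05 in edgeR's test without a replicate term.

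The comparison of mutant with wild-type ovaries asked whether the level of these factors differed when *Sall1* was expressed from *Wt1* regulatory elements. In edgeR's quasi-likelihood test, 0 of the 9 factors had an adjusted p under 0.05, beside 9 of the 15442 genes tested (0.0583%). At an unadjusted p under 0.05 there were 2 of the 9, against 5.69% of all genes: *Lhx9* was lower, as were 2.73% of all genes, and *Nr0b1* higher, as were 2.95%. With DESeq2 the same 2 had an unadjusted p under 0.05, against 2.51% of its genes, and DESeq2 with default settings gave an adjusted p under 0.05 for 1 of the 9, *Lhx9*, against 0.714%. Mutant and wild-type values did not overlap for 3 of the 9 factors, *Lhx9*, *Zfpm2* and *Nr0b1*, which is close to the 30.9% of all genes that did so (2 lower, beside 15.1% of all genes, and 1 higher, beside 15.8%). Other fits called 0 of the 9 with RLE or upper-quartile scaling (0.0648% of all genes each), with no filter (0.126%), with at least 10 counts in every library (0.134%), and without mutant replicate 2 (0.236%), wild-type replicate 1 (0.0443%) or wild-type replicate 2 (0.0252%). They called 1 without mutant replicate 1 (0.81%) and 2 in a fit with replicate number as a term (2.49%). The median log2 fold change was 0.03 over the 9 factors and -0.00088 over all genes tested, with 5 above and 4 below 0. For 7 of the 9 the absolute log2 fold change was under 0.25 and the 95% interval spanned 0. An exact permutation test over 4 libraries has a smallest possible two-sided p of 0.333 for any gene.

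**Figure D2:**
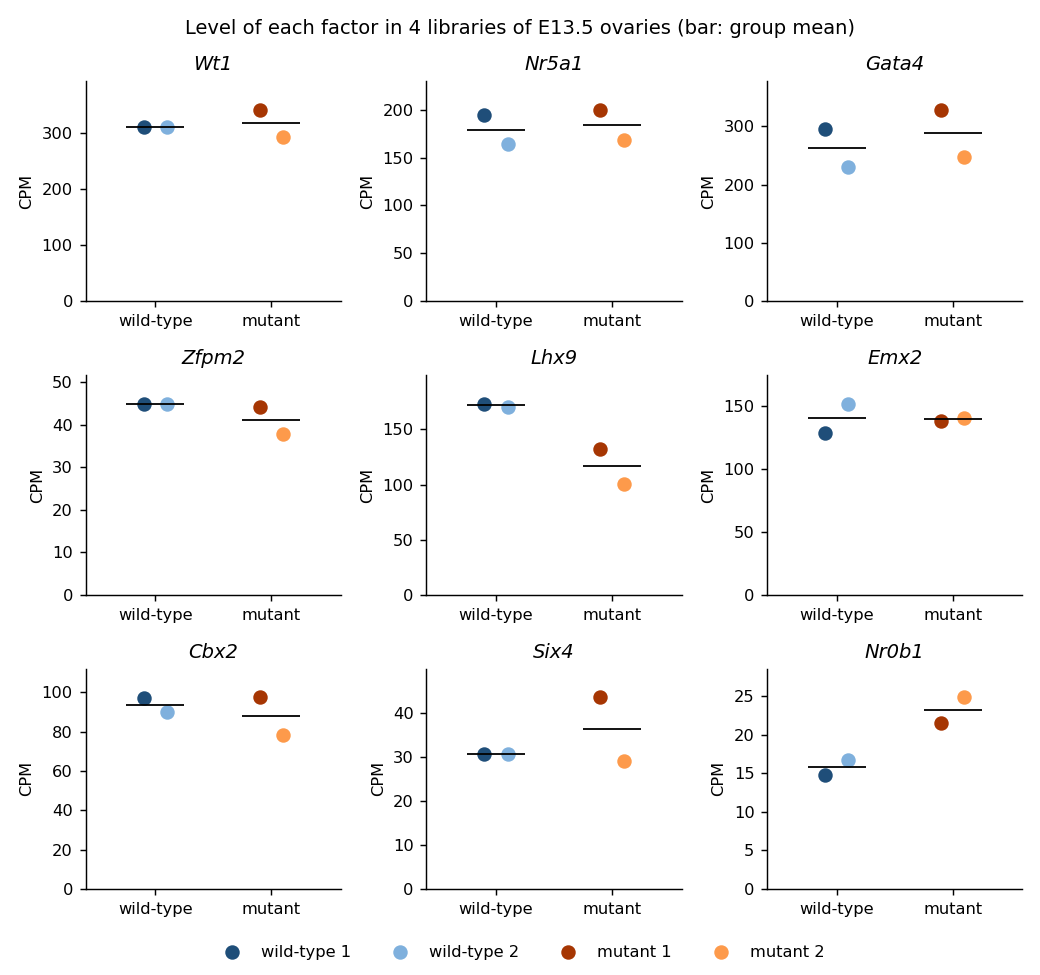
Level of each of the 9 factors in CPM, with 1 point per library and a bar at the mean of each group (n = 2). The mutant points lie apart from the wild-type points for Lhx9 (132 and 101 against 173 and 171 CPM), Nr0b1 (21.6 and 24.9 against 14.8 and 16.8 CPM) and, narrowly, Zfpm2.

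*Lhx9* encodes a LIM homeodomain protein of the coelomic epithelium and the gonadal somatic cells beneath it, without which the gonad does not form. The gene lies on chromosome 1, minus strand, from 140721763 to 140745153 on NCBIM37 by GENCODE M1. This assembly is mm9, the build that the submitters' processing notes name, and the positions given below are on it too. The mutants gave 1458 and 1513 counts of *Lhx9*, the wild types 2981 and 3011. This corresponded to 132 and 101 CPM in mutant and to 173 and 171 CPM in wild-type ovaries. Both mutant libraries were lower than both wild-type libraries, and the wild-type pair differed far less than the mutant pair. The fold change was 0.676, or -0.56 on the log2 scale (standard error 0.14, 95% interval -0.89 to -0.24), and by unadjusted p, 0.00453, *Lhx9* ranked 171 among the 15442 genes. Its adjusted p was 0.407 in edgeR's quasi-likelihood test. DESeq2 gave a log2 fold change of -0.57 (standard error 0.15) with an adjusted p of 0.0233. In an edgeR fit with replicate number as a term, it was -0.58 (standard error 0.094) with an adjusted p of 0.00269. In that fit 2.49% of the genes tested passed. Without mutant replicate 1, whose level was nearer to the wild-type level, the log2 fold change was -0.78 and the adjusted p from edgeR was 0.0124 (0.81% of the genes tested passed in that fit). Without any of the other libraries it lay between -0.38 and -0.57, with adjusted p-values between 0.439 and 0.929.

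Ratios of counts within a library do not depend on its depth or scaling, and they were computed for *Lhx9* after its values had been seen. Per 100 counts of *Wt1*, the mutants held 38.8 and 34.4 counts of *Lhx9* and the wild types 56.0 and 55.1. Per 100 counts of *Gata4* there were 40.3 and 40.7 against 58.9 and 73.9. The mutant ratios were lower than the wild-type ratios against each of the other 8 factors. These 8 ratios share the same *Lhx9* counts, and 7 of the other factors had an absolute log2 fold change under 0.25. They are therefore not 8 separate results. Relative to the summed counts of the other 8 factors, the log2 fold change of *Lhx9* was -0.62.

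Several markers of the surface epithelium and stroma of the ovary were lower beside it. The marker lists here and below were chosen with earlier results of these data known, so the shares of all genes beside them are no test. Of the 7 listed markers of the surface epithelium, 6 were tested and 0 passed at an adjusted p under 0.05 in edgeR. At an unadjusted p under 0.05 in edgeR, 2 were lower, beside 2.73% of all genes, and 0 higher, beside 2.95%. DESeq2, which called 0.714% of its genes, called 2 of these markers. Their summed level was 250 and 184 CPM in the mutant libraries and 336 and 350.5 CPM in the wild-type libraries, with a median log2 fold change of -0.41. Among them were *Upk3b*, a uroplakin of mesothelium (63.5 and 48.3 against 86.3 and 97.8 CPM), and *Aldh1a2*, an enzyme of retinoic acid synthesis (78.8 and 60.6 against 137 and 146 CPM). *Krt19*, a keratin of the same epithelium, had 15.5 and 12.2 against 12.7 and 15.1 CPM, and its groups overlapped. Of the 9 stromal markers all were tested, with a median log2 fold change of -0.47, and 0 were called by edgeR. DESeq2, which called 0.714% of its genes, called 3 of these markers. At an unadjusted p under 0.05 in edgeR, 4 were lower, among them *Tcf21* and *Lum*, beside 2.73% of all genes, and 0 were higher. The summed level of the stromal markers was 2037 and 1323 CPM in the mutant libraries and 1928 and 2037 CPM in the wild-type libraries. *Col1a1* went the other way, with 554 and 313.5 against 405 and 378 CPM (log2 fold change 0.15), and its groups overlapped. The groups of *Col3a1* overlapped too. The part of these cells in the level of *Lhx9* was not tested, and in bulk RNA fewer cells of a type and less RNA per cell cannot be told apart.

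**Figure D3:**
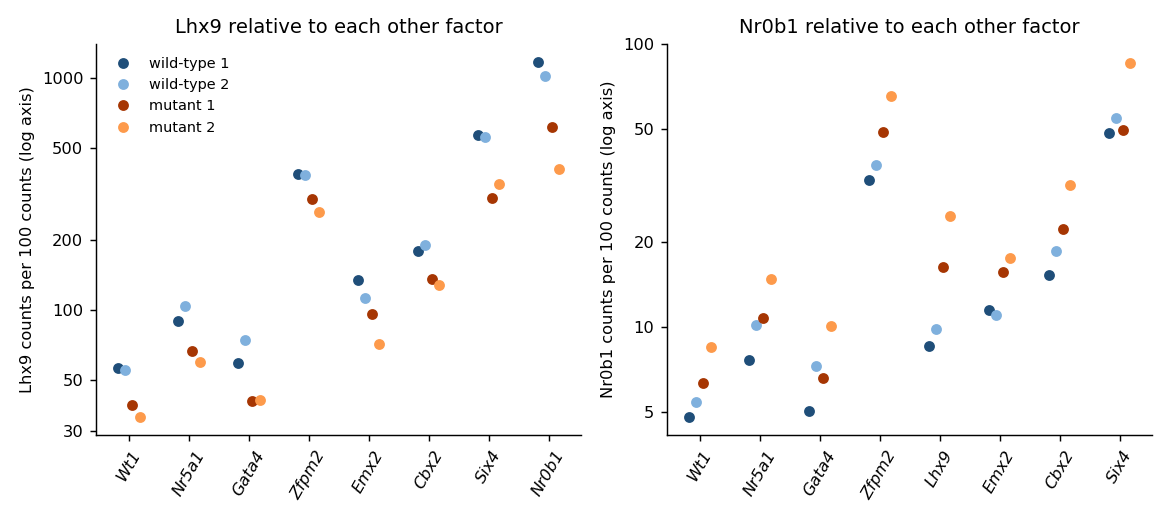
Counts of Lhx9 (left) and Nr0b1 (right) per 100 counts of each other factor in the same library (log axes), with 1 point per library. The Lhx9 points of the mutant libraries lie below those of the wild-type libraries for all 8 other factors (38.8 and 34.4 against 56.0 and 55.1 per 100 counts of Wt1), and the Nr0b1 points lie above for 6 of 8. The ratios of a panel share the same numerator and are not separate results.

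*Nr0b1*, on the plus strand of the X chromosome from 83437103 to 83441286, encodes an orphan nuclear receptor that binds NR5A1 and represses it. The mutants gave 238 and 374 counts and the wild types 255 and 296, or 21.6 and 24.9 against 14.8 and 16.8 CPM. Both mutant libraries were higher than both wild-type libraries after scaling. The fold change was 1.47, or 0.56 on the log2 scale (standard error 0.15, 95% interval 0.20 to 0.92), with an unadjusted p of 0.00786. The adjusted p was 0.50 in edgeR's quasi-likelihood test and 0.824 with DESeq2, and in a fit with replicate number as a term it was 0.0408. Leaving out each library gave log2 fold changes from 0.45 to 0.66, with 0 adjusted p-values under 0.05. Without wild-type replicate 1 the 95% interval was -0.031 to 0.98 and the unadjusted p from edgeR was 0.0627. Per 100 counts of *Wt1* there were 6.33 and 8.50 counts of *Nr0b1* in mutant against 4.79 and 5.42 in wild-type libraries. The mutant ratios were higher against 6 of the other 8 factors, while the groups overlapped against *Gata4* and *Six4*. These ratios were also computed after the values had been seen, and they share the same *Nr0b1* counts. The ratio to *Lhx9* is the inverse of the one counted above.

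The pre-granulosa markers were read beside *Nr0b1*. Of 10 listed, 9 were tested and 0 passed in edgeR. At an unadjusted p under 0.05 in edgeR, 3 were higher (*Foxl2*, *Irx3* and *Lgr5*), beside 2.95% of all genes, and 1 lower (*Bmp2*), beside 2.73%. DESeq2, which called 0.714% of its genes, called 2 of these markers. Their summed level was 798 and 781 CPM in the mutant and 698 and 709 CPM in the wild-type libraries, and their median log2 fold change was 0.14. *Nr0b1* is also a gene of the adrenal cortex. The 8 adrenal markers summed to 42.5 and 44.9 CPM in the mutant and 47.8 and 56.7 CPM in the wild-type libraries. Of the 6 tested, 0 passed in edgeR, and the median log2 fold change was 0.12. In both mutants 3 were higher than in both wild types (*Mc2r*, *Cyp11a1* and *Mrap*), as were 15.8% of all genes. The other 3 were lower (*Hsd3b1*, *Star* and *Akr1b7*), as were 15.1%. *Mc2r* and *Cyp11a1* among the higher and *Hsd3b1* among the lower had an unadjusted p under 0.05. The defining steroid hydroxylases were near 0, with between 0 and 1 counts of *Cyp21a1* and between 0 and 3 counts of *Cyp11b1* per library. The part of pre-granulosa or adrenal cells in the level of *Nr0b1* was not tested.

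*Wt1* encodes the zinc finger factor of gonadal and kidney precursors whose regulatory elements drive the construct. It lies on chromosome 2, plus strand, from 104966686 to 105013773. It had 341 and 292 CPM in the mutant and 309 and 309 CPM in the wild-type libraries, so the wild-type values fell between the mutant ones. The log2 fold change was 0.03 (standard error 0.10), and its 95% interval of 0.865-fold to 1.21-fold bounds the difference. The sign of this small difference turned without mutant replicate 1 (-0.084). Per 100 counts of *Wt1*, the mutants held 33.1 and 32.9 counts of *Sall1* and the wild types 5.24 and 4.08. The antisense gene *Wt1os* (AI314831 in the annotation) starts 19 bases from *Wt1* on the opposite strand. It had 72.3 and 57.0 CPM in the mutant and 48.0 and 50.7 CPM in the wild-type libraries, so both mutants were higher, as in 15.8% of all genes. The log2 fold change was 0.39 (95% interval 0.058 to 0.72), with an unadjusted p of 0.0274 and an adjusted p of 0.76 from edgeR. Whether the counting kept strands apart is not given in the sources used here, so reads of *Wt1* and *Wt1os* could not be told apart wherever their transcripts overlap, although their annotated bounds do not.

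*Nr5a1* and *Gata4*, the nuclear receptor and the GATA factor at the centre of this set, differed more between replicates than between groups. *Nr5a1*, on chromosome 2, minus strand, from 38548176 to 38570062, had 199.8 and 168 CPM in the mutant and 194 and 164 CPM in the wild-type libraries. Its log2 fold change was 0.04 (standard error 0.13), with an interval of 0.836-fold to 1.26-fold. *Gata4*, on chromosome 14, minus strand, from 63817759 to 63890529, had 328 and 247 CPM in the mutant and 294 and 231 CPM in the wild-type libraries. Its log2 fold change was 0.13 (standard error 0.17), with an interval of 0.831-fold to 1.44-fold. For both genes the groups overlapped, and the direction turned without mutant replicate 1 (-0.090 for *Nr5a1* and -0.090 for *Gata4*) and without wild-type replicate 2 (-0.066 and -0.025). Leaving out a library unbalances the replicate numbers, so these turns also hold the difference between replicates. Within each replicate number the mutant value was the higher. With replicate number as a term, the log2 fold change was 0.04 for *Nr5a1* (standard error 0.079) and 0.13 for *Gata4* (0.078), and neither was called.

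*Zfpm2* encodes FOG2, the cofactor that binds GATA4 and is required with it in the gonad. It lies on chromosome 15, plus strand, from 40486588 to 40936138. It had 44.1 and 37.9 CPM in mutant and 44.9 and 44.8 CPM in wild-type ovaries. The mutant libraries were lower, but by less than 1 CPM in mutant replicate 1, and the log2 fold change of -0.13 (standard error 0.12, interval 0.747-fold to 1.11-fold) had an adjusted p of 1.00 in edgeR.

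*Emx2*, a homeodomain gene of the urogenital ridge, lies on chromosome 19, plus strand, from 59533180 to 59539847. It had 138 and 141 CPM in the mutant and 129 and 152 CPM in the wild-type libraries. The mutant values lay within the wild-type range, and the difference was -0.0075 on the log2 scale (standard error 0.11, interval 0.833-fold to 1.19-fold). Its sign turned without mutant replicate 1 (0.0044) and without wild-type replicate 2 (0.13). *Emx2os*, which starts 55 bases away on the opposite strand, had 45.1 and 28.4 CPM in the mutant and 33.4 and 41.0 CPM in the wild-type libraries, and its groups overlapped too.

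*Cbx2*, a chromodomain subunit of Polycomb repressive complex 1, lies on chromosome 11, plus strand, from 118884276 to 118892584. It had 97.4 and 78.4 CPM in the mutant and 97.0 and 90.0 CPM in the wild-type libraries. The groups overlapped, and the log2 fold change was -0.092 (standard error 0.13, interval 0.761-fold to 1.16-fold), turning to 0.057 without mutant replicate 2. *Six4*, a homeobox gene that acts upstream of *Nr5a1*, lies on chromosome 12, minus strand, from 74201246 to 74214401. It had 43.5 and 29.0 CPM in the mutant and 30.5 and 30.7 CPM in the wild-type libraries, so its difference came from mutant replicate 1. The log2 fold change was 0.24 (standard error 0.19, interval 0.859-fold to 1.62-fold), and it turned to -0.079 without that library.

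**Figure D4:**
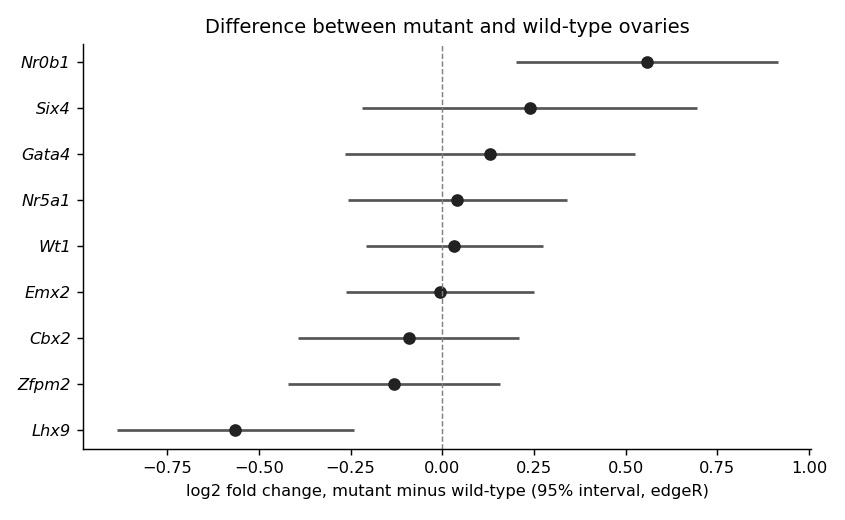
Log2 fold change of each factor, mutant minus wild-type, with its 95% interval from edgeR's quasi-likelihood fit. The intervals of Lhx9 (-0.89 to -0.24) and Nr0b1 (0.20 to 0.92) lie on 1 side of 0 before adjustment for the number of genes, and the other 7 span 0.

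The profile of *Wt1* over the 4 libraries, as log2 CPM centred on its mean, was nearest to those of *Ube2g2*, *Slc25a24* and *Clp1*, at Euclidean distances of 0.0126, 0.0233 and 0.0242 on the log2 scale. The median distance over the 6728 genes compared was 0.233. The profile of *Lhx9*, the member with the largest change, was nearest to those of *Pcsk5*, *Igfbp3* and *Slc25a37*, at 0.0852, 0.0887 and 0.0958, with a median of 0.66. *Igfbp3*, which encodes a binding protein of insulin-like growth factors, had 70.95 and 58.4 CPM in the mutant and 99.8 and 95.9 CPM in the wild-type libraries. With 4 libraries such likeness only describes these profiles.

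Other genes of the same network were read from lists that were also chosen with earlier results of these data known. Beside them, 2.95% of all genes were higher and 2.73% lower at an unadjusted p under 0.05 in edgeR. Of 25 other early gonad factors, 23 were tested, 0 passed in edgeR at an adjusted p under 0.05, and their median log2 fold change was 0.0088. At an unadjusted p under 0.05, *Foxl2*, the forkhead factor of the ovary, was higher (46.3 and 44.1 against 28.0 and 32.0 CPM), and 2 were lower. These were *Tcf21*, a bHLH factor of the gonadal mesenchyme (28.0 and 23.3 against 57.7 and 51.7 CPM, log2 fold change -1.10, standard error 0.14, adjusted p = 0.0811 from edgeR), and the homeobox gene *Hoxd11* (2.09 and 2.13 against 5.81 and 2.89 CPM). DESeq2, which called 0.714% of its genes, called 1 of the list. *Ctnnb1*, which encodes beta-catenin and was the most abundant of the list by CPM, had a log2 fold change of 0.03.

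Of 30 paralogs of the 9 factors, 22 were tested, 0 passed in edgeR and 0 with DESeq2, and 0 had an unadjusted p under 0.05. The largest log2 fold changes were those of *Egr2* (0.81), on at most 12 counts per library, and *Gata1* (-0.63), a gene of blood cells. The *Cbx2* paralog *Cbx6* had a log2 fold change of 0.0015 (standard error 0.10), and the *Nr5a1* relative *Nr6a1*, which lies 8828 bases from it, one of -0.024 (standard error 0.12). Among 32 genes of the Polycomb repressive complexes, 30 were tested, 0 passed with either tool and 0 had an unadjusted p under 0.05. Their log2 fold changes lay between -0.21 and 0.49, the highest being that of *Pcgf6*, and the abundant histone-binding subunits *Rbbp7* and *Rbbp4* were at 0.019 and -0.075. Of 25 cofactors, all were tested and 0 passed in edgeR. The cofactor with the largest change was *Dach1*, a partner of EYA proteins. It had 4.08 and 2.66 CPM in the mutant and 11.97 and 10.8 CPM in the wild-type libraries, or -1.77 on the log2 scale (edgeR, adjusted p = 0.145), and it was the 1 cofactor with an unadjusted p under 0.05. DESeq2, which called 0.714% of its genes, called 1 cofactor.

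Targets of the factors were read in the same way, beside the same shares of all genes. Of 15 WT1 targets, 12 were tested, with 0 passing in edgeR, 0 passing with DESeq2 and 0 at an unadjusted p under 0.05. *Pax2* and *Scel* had the largest log2 fold changes, -0.45 and -0.42, with at most 26 counts per library. *Podxl*, a sialomucin of podocytes and gonadal epithelium, had 820 and 696 CPM in the mutant and 703 and 670 CPM in the wild-type libraries. *Amhr2*, the receptor of anti-Müllerian hormone, had 189 and 172 against 170 and 139 CPM. Of 20 NR5A1 targets, 16 were tested and 0 passed in edgeR or DESeq2, with a median log2 fold change of 0.02. At an unadjusted p under 0.05, 3 were higher, *Prlr*, *Mc2r* and *Cyp11a1*, and 2 were lower, *Hsd3b1* and *Inhbb*. *Cyp11a1*, the first enzyme of steroid synthesis, had 4.63 and 2.53 against 1.86 and 1.42 CPM, whereas *Hsd3b1*, the dehydrogenase of the same pathway, had 21.8 and 28.1 against 30.3 and 38.4 CPM. Of 12 targets of GATA4 and FOG2, 9 were tested, 0 passed in edgeR, and 3 were lower (*Dkk1*, *Lhx9* and *Hsd3b1*) and 0 higher at an unadjusted p under 0.05. *Lhx9* is itself on this list and was the 1 call in it by DESeq2, which called 0.714% of its genes. *Dkk1*, a WNT inhibitor that GATA4 and FOG2 keep low in the ovary, rested on 8 and 12 counts in the mutant and 27 and 37 in the wild-type libraries (log2 fold change -1.25, standard error 0.43, adjusted p = 0.72 from edgeR).

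**Figure D5:**
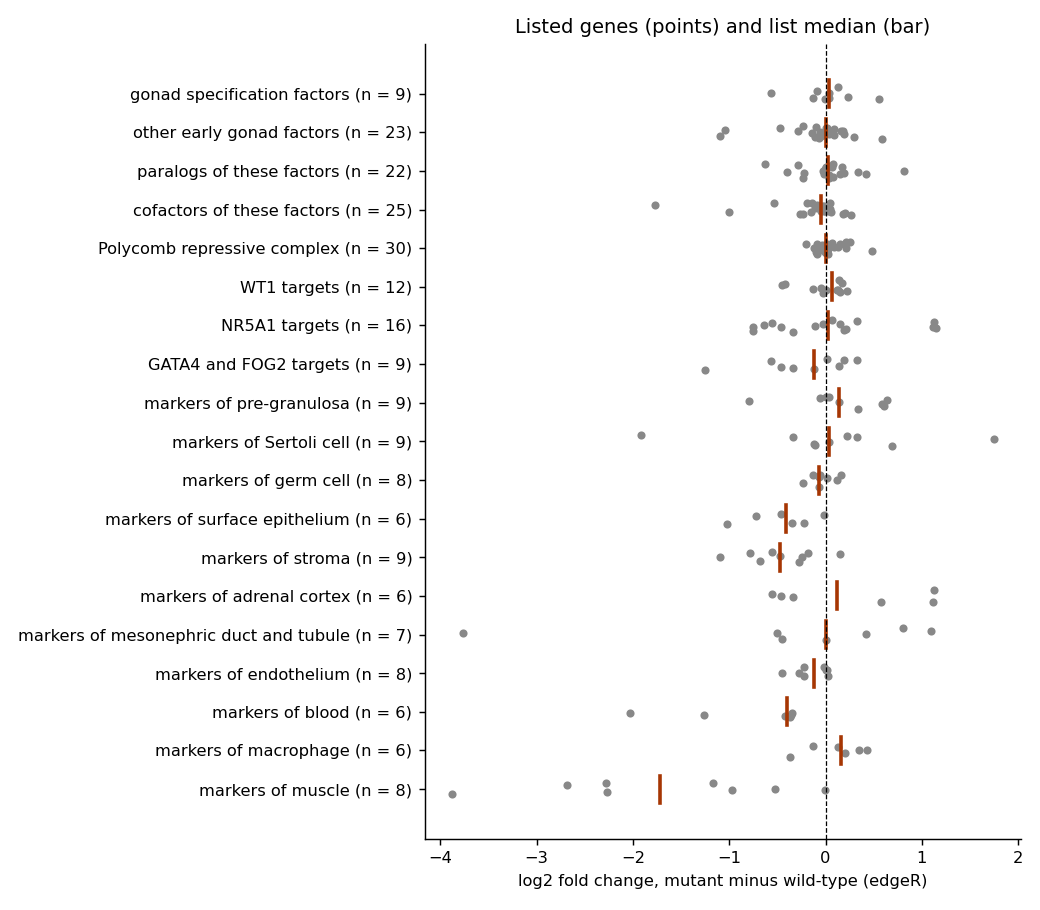
Log2 fold change, mutant minus wild-type, of the tested genes of each list (grey points, edgeR) with the median of the list (brown bar), for the 9 factors, their network and the marker lists. The median of the 9 factors is 0.03 and that of other early gonad factors 0.0088. The lowest medians are those of the muscle (-1.72), stroma (-0.47), surface epithelium (-0.41) and blood (-0.396) markers. The muscle markers were high in 1 library, with a summed level of 247.5 CPM in wild-type replicate 1 and 24.2 CPM in wild-type replicate 2. The summed blood levels overlapped between groups.

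The remaining marker lists were as follows, beside 2.95% of all genes higher and 2.73% lower at an unadjusted p under 0.05 in edgeR. Of the 10 Sertoli cell markers, 9 were tested and 0 passed in edgeR, and *Ptgds* (log2 fold change 1.75) and *Aard* (0.69) were higher at an unadjusted p under 0.05. The 8 germ cell markers had 0 genes at that threshold and a median log2 fold change of -0.065. Endothelial markers had a median of -0.12, with *Kdr* lower at an unadjusted p under 0.05. Of the mesonephric duct and tubule markers, 7 of 10 were tested and *Calb1*, a calcium-binding protein of the duct, was the 1 gene called by edgeR in any list (log2 fold change -3.76, adjusted p = 0.0449). This call was lost without wild-type replicate 2. With at least 10 counts required in every library *Calb1* was not tested, because mutant replicate 1 held 9 counts of it. The kidney and duct gene *Pax8* was higher at an unadjusted p under 0.05 (log2 fold change 0.80). Blood markers summed to 3182 and 871 CPM in the mutant and 3498 and 1684 CPM in the wild-type libraries. Macrophage markers summed to between 35.5 and 56.0 CPM, and the muscle markers to 247.5 CPM in wild-type replicate 1 and between 19.9 and 61.4 CPM elsewhere. Without wild-type replicate 1, the log2 fold changes of *Lhx9* and *Nr0b1* were -0.55 and 0.47, as against -0.56 and 0.56 with it.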

How the data were processed

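The 4 libraries were grouped by genotype in the sample titles. Reads had been aligned by the authors with STAR v2.6.1d, with mm9 as the build in the submitters' processing notes, and reads per gene counted in R (summarizeOverlaps). The table the authors deposited holds raw counts, 1 column per library, neither normalized nor pooled. The annotation and strand handling are not given in the sources used here. Counts were analysed in R 4.3.3 with edgeR 4.0.16 (TMM, filterByExpr, quasi-likelihood F-test, genotype as the only term, Benjamini-Hochberg adjustment over 15442 genes, threshold 0.05). Standard errors and 95% intervals came from the F statistic, and CPM was computed with TMM factors. A count of 3, the floor, was 0.17 to 0.272 CPM and covers counting error only.

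DESeq2 1.42.0, other scaling, other filters, the replicate block and leaving out each library were alternatives; with 1 library left out, the lone library of its group was assumed to vary like the other group. The fits were tested on simulated counts, with changes larger than those of the 9 members and libraries drawn independently. They were not tested on changes as small as those of the members. Gene symbols were matched to GENCODE M1 (NCBIM37) for positions and exon lengths. Genes named are the 9 members, *Sall1*, neighbours in the annotation, genes with profiles nearest to *Wt1* and *Lhx9*, and in each list the 2 genes with the largest changes, the 2 with the highest levels and any that passed; others, among them those named for an unadjusted p, *Amh*, *Sry*, *Krt19*, *Amhr2* and the *Nr0b1* promoter, were chosen after their values were seen. Members and lists were chosen with earlier results of these data known. Of the listed genes, *Ahsp* could not be matched. Some genes of the lists and neighbours are not reported here.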

Additional observations from a re-analysis of the deposited data

How the results depend on the processing

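The number of genes called in all, 9, was 105 with DESeq2, 28 with no filter on low counts, 19 with at least 10 counts in every library and 385 with the replicate block (180 higher, 205 lower, 2.49% of the genes tested), and 4 to 130 with each library left out. The number of the 9 factors called, 0, was 1 with DESeq2, 2 with the replicate block, and 0 to 1 with each library left out, the 1 being *Lhx9* without mutant replicate 1. RLE and upper-quartile scaling each gave 10 genes in all and 0 factors. Other early gonad factors called, 0, were 1 with DESeq2, with no filter and with at least 10 counts, and 3 with the replicate block. Cofactors called, 0, were 1 with DESeq2 and with the replicate block. NR5A1 targets called, 0, were 3 with the replicate block, and targets of GATA4 and FOG2, 0, were 1 with DESeq2 and 2 with the block. Stromal markers called, 0, were 3 with DESeq2, 5 with the block, and 1 with no filter and with at least 10 counts. Blood markers called, 0, were 1 with DESeq2 and 5 with the block, and muscle markers, 0, were 4 with the block. The cause of these changes was not tested.

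Replicate numbers occur in both groups, and libraries of the same number carry neighbouring library numbers in the column names, but no source says that they share a litter or day. Their deviations from the group means correlated at 0.481 across genes, which are not independent replicates. With the replicate block, *Lhx9* (log2 fold change -0.58, adjusted p = 0.00269 from edgeR) and *Nr0b1* (0.56, adjusted p = 0.0408) passed, and the other 7 factors had adjusted p-values of at least 0.659. Common dispersion was 0.0210 without the block and 0.00639 with it.

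With each library left out, log2 fold changes ranged from -0.084 to 0.14 for *Wt1*, -0.090 to 0.17 for *Nr5a1*, -0.090 to 0.32 for *Gata4*, -0.25 to -0.027 for *Zfpm2*, -0.78 to -0.38 for *Lhx9*, -0.12 to 0.13 for *Emx2*, -0.26 to 0.057 for *Cbx2*, -0.079 to 0.51 for *Six4* and 0.45 to 0.66 for *Nr0b1*. The direction of each factor was the same in the 6 alternatives that keep all libraries. For the 7 factors whose 95% intervals span 0, differences within those intervals could not be told from none in edgeR's test.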
